A study of Homo sapiens with 8 samples.

Results

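The comparison described here sets the only RNA-seq library from K562 cells given 20 µM Lip-1 for 24 h (replicate 1) beside the 3 libraries from K562 cells given 10 µM Lip-1 for 24 h (replicates 2 to 4). These are 4 of the 8 libraries of the series, chosen by their labelled dose. The other 4 libraries, controls 1 to 4, came from K562 cells without Lip-1 and serve here as a reference. K562 is an established cell line from a chronic myeloid leukaemia, carries the BCR-ABL1 fusion and makes fetal and embryonic globins. All libraries share this 1 line and the genotype label WT. The controls are labelled Day 0 and every treated library Day 1, so treatment and day cannot be told apart, and the labels name no vehicle. The label 20 µM belongs to replicate 1 alone, so dose and replicate number cannot be told apart either. The labels do not say whether replicates came from separate cultures, so p-values measure the spread between these libraries, which may be technical. The labels give only the short name Lip-1, which commonly stands for liproxstatin-1.

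Liproxstatin-1 is known as a radical-trapping inhibitor of lipid peroxidation and of ferroptosis, an iron-dependent form of cell death. Several of the gene groups below are read-outs of cell state. SREBP2 switches on the genes of cholesterol synthesis when membrane sterol is low. ATF4 and CHOP switch on amino acid and stress genes when translation is slowed by stress kinases. ATF6 and XBP1 raise the chaperones of the endoplasmic reticulum, and NF-kB raises cytokine genes and its own inhibitors.

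The 20 µM library held 124240276 counts and the 10 µM libraries between 71151415 and 72660803. The controls held between 79063246 and 141307169, with control 1 the deepest. Between 12972 and 13276 genes had at least 10 counts in the 10 µM libraries, and 14351 genes did in the 20 µM library. The root mean square log2 distance over the 14857 genes tested was between 1.36 and 1.56 from the 20 µM library to the 10 µM libraries, and between 0.905 and 1.03 among the 10 µM libraries. From the 10 µM libraries to the controls it was between 1.01 and 1.35. The 20 µM library thus lay farther from each 10 µM library than any 10 µM library lay from a control. The closest of these values, 1.36035 and 1.3455, were near each other. The distance was between 0.863 and 1.20 among the controls, and between 1.42 and 1.93 from the 20 µM library to the controls. The control nearest to the 20 µM library was control 1, at 1.42. The 10 µM replicates 2 to 4 lay at 1.52, 1.56 and 1.36 from it. BCR was measured at between 112 and 143 CPM (counts per 1000000 counts of the library) and ABL1 at between 234 and 280 CPM in all 8 libraries, and the fetal globin HBG2 at between 1469 and 3560 CPM. Of 10 lymphocyte markers, 7 were under 1 CPM in every library, as were 7 of 13 monocyte and granulocyte markers and 5 of 8 epithelial and fibroblast markers, and the granulocyte gene ELANE was at 0 in all. The summed level of the lymphocyte markers was 6.63 CPM in the 20 µM library, between 14.2 and 24.4 CPM at 10 µM and between 13.2 and 17.8 CPM in the controls. That of the monocyte and granulocyte markers was 78.5 CPM, between 70.4 and 155.4 CPM and between 48.4 and 170.6 CPM in the same order, and that of the epithelial and fibroblast markers 28.3 CPM, between 34.7 and 43.3 CPM and between 32.3 and 55.2 CPM. Each library is of bulk RNA, so fewer cells of a kind and less RNA per cell cannot be told apart.

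A gene was called apart when the 20 µM library lay at least 2-fold above the highest, or at least 2-fold below the lowest, of the 3 libraries at 10 µM. By this rule 2021 genes (13.6% of those tested) were higher in the 20 µM library and 964 (6.49%) were lower. Counts of group members apart, given below, are to be read beside these shares. The gene filter asked for enough counts in only 1 library, the size of the smallest group. It thus kept genes with enough counts in the 20 µM library alone, which could only be called higher. With a filter of 1 CPM in 3 libraries 1086 were higher and 722 lower. Among the 10679 genes whose mean log2 CPM reached 1 the counts were 826 (7.73%) and 750 (7.02%), so most of the surplus of higher genes was of low level. With 1 library against 3 the smallest two-sided permutation p is 0.25, so no gene can pass a permutation test. The edgeR quasi-likelihood test can be computed because it takes the spread from all 8 libraries and assumes that the lone 20 µM library varies like the rest. It called 1734 genes higher (11.7%) and 2169 lower (14.6%) at an adjusted p under 0.05. Of these, 877 of the higher and 735 of the lower were also apart by size. The median difference over all genes tested, on the log2 scale, was 0.05, which is the level against which the medians of gene groups below are set. Leaving out any 1 of the 10 µM libraries lowered the number of all tested genes that edgeR called higher. The number called lower fell without replicate 2 or 3 and rose without replicate 4. Counts of group members in such fits below are to be read beside this. The 10 µM libraries themselves differed from the controls, with 1387 genes called higher (9.34%) and 1455 lower (9.79%) by edgeR.

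Control 1 shares its replicate number with the 20 µM library and was, like it, sequenced more deeply. Control 1 lay at least 2-fold above controls 2 to 4 in 748 genes (5.03%) and at least 2-fold below them in 136 (0.915%). Of the 2021 genes higher in the 20 µM library, control 1 was high in this way in 418 (20.7%), and of the 964 lower genes it was low in 34 (3.53%). Without these genes 1603 remained higher and 930 lower. When each treated library was set against the control of its own replicate number, 1224 of all genes tested (8.24%) were apart higher and 1086 (7.31%) lower. Of the genes apart without this step, 1003 of the higher and 643 of the lower genes were still apart by size. A shared feature of the replicate 1 libraries was thus measured for part of the higher genes, and its part in the differences was not tested beyond these counts. Where it touches a named gene, the value of control 1 is given beside it.

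**Figure D1:**
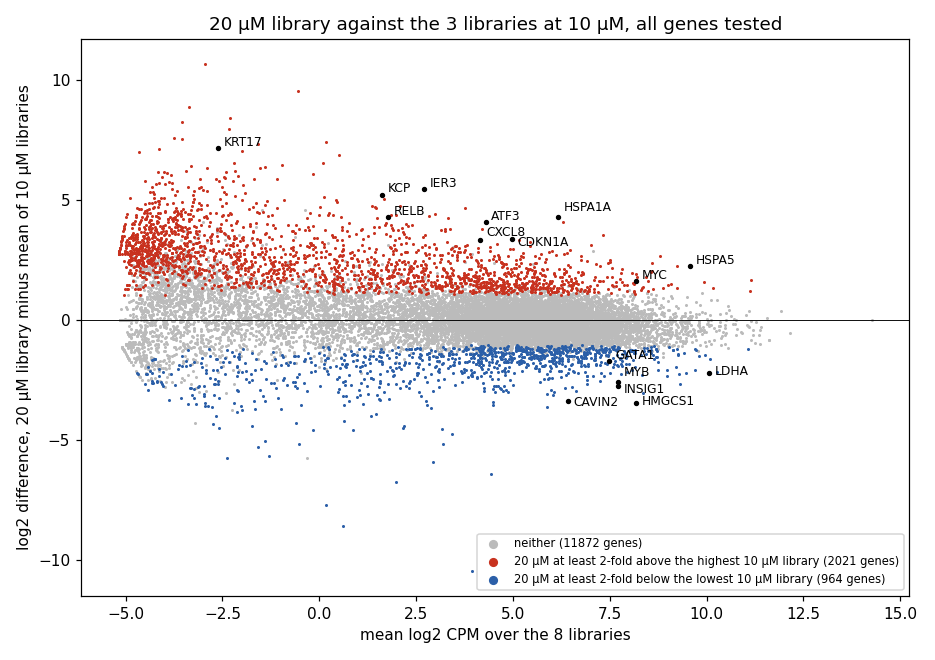
Each point is 1 of the 14857 genes tested, with its mean log2 CPM over the 8 libraries on the x axis and the log2 difference of the 20 µM library from the mean of the 10 µM libraries on the y axis. Red marks the 2021 genes at least 2-fold above the highest 10 µM library, blue the 964 at least 2-fold below the lowest, grey the rest. Labelled genes are described in the text.

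Most genes of cholesterol synthesis and uptake were lower in the 20 µM library than at 10 µM, where they were above the controls. Of 26 genes tested, 21 were apart on the lower side and none on the higher side. The edgeR test called 22 lower and none higher, and the median log2 difference was -1.66. The same group was high at 10 µM: edgeR called 22 of its genes higher than the controls and 0 lower. In 24 of 26, every 10 µM library lay above every control, against 21.8% of all genes tested. In the 20 µM library 15 lay below all 4 controls and 4 above them, against 30.6% and 46.5% of all genes tested. Relative to the mean of the controls the group median was 1.33, 1.28 and 1.15 on the log2 scale in 10 µM replicates 2 to 4 and -0.49 in the 20 µM library.

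HMGCS1 (chromosome 5, 43289395 to 43313512, minus strand), which makes the HMG-CoA that feeds the mevalonate pathway, was at 139, 145, 144 and 170.2 CPM in controls 1 to 4, 1219.6, 779 and 1078 at 10 µM and 92.1 at 20 µM. All 10 µM libraries were several times above every control, and the 20 µM library was below every control, so neither group overlapped with it. Its level at 10 µM was 1026 ± 225 CPM (SD, n = 3), 11-fold that of the 20 µM library, and the edgeR log2 fold change was -3.48 ± 0.28 (SE; adjusted p = 0.000207). INSIG1, which holds the SREBP escort protein in the endoplasmic reticulum, was at 89.8, 129, 115 and 91.3 CPM in controls 1 to 4, 651, 687 and 661 at 10 µM and 98.6 at 20 µM. Here the 20 µM value lay inside the range of the controls and 6.77-fold under the 10 µM mean (edgeR adjusted p = 0.000519). STARD4, a carrier that moves cholesterol between membranes, was at 32.7, 51.9, 42.2 and 38.1 CPM in controls 1 to 4, 143, 183 and 165 at 10 µM and 21.4 at 20 µM, again below every control in the 20 µM library (edgeR adjusted p = 0.000585). DHCR7, the reductase that turns dehydrocholesterol into cholesterol, was at 118, 153, 138 and 118 CPM in controls 1 to 4, 330.1, 250.4 and 232 at 10 µM and 57.3 at 20 µM, and was apart on the lower side (edgeR adjusted p = 0.00119).

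The gene of the regulator itself was not lower. SREBF2, which encodes SREBP2, was at 137, 131, 133 and 137 CPM in controls 1 to 4, 269, 250.2 and 264 at 10 µM and 275 at 20 µM. It was thus about as high in the 20 µM library as at 10 µM, and above every control in both, with an edgeR log2 fold change between the doses of 0.08 ± 0.13 (adjusted p = 0.706). SREBF1, which encodes SREBP1, was at 234, 207, 191 and 185 CPM in controls 1 to 4, 304, 234 and 268 at 10 µM and 97.1 at 20 µM, the lowest of the 8 libraries (edgeR adjusted p = 0.00135). IDI1, the isomerase after the mevalonate steps, was at 29.7, 100.2, 89.2 and 32 CPM in controls 1 to 4, 98.2, 333 and 294 at 10 µM and 69.6 at 20 µM. Controls 1 and 4 and 10 µM replicate 2 were low together, and its edgeR adjusted p was 0.182.

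Genes of fatty acid synthesis, which are driven mainly by SREBP1, were partly lower as well. Of 17 genes of fatty acid synthesis and sterol efflux, 7 were apart lower and 1 apart higher, edgeR called 10 lower and 1 higher, and the median was -0.98. FASN, the fatty acid synthase, was at 1186, 1248, 1145 and 1028 CPM in controls 1 to 4, 2531, 1832 and 1618 at 10 µM and 434 at 20 µM (edgeR adjusted p = 0.0012). FADS1, the delta-5 desaturase, was at 426 to 569.8 CPM in controls, 1072 to 1365 at 10 µM and 253 at 20 µM, and ELOVL6, which elongates palmitate, was at 72.6 to 87.9 CPM in controls, 156 to 173 at 10 µM and 36.4 at 20 µM. All 3 were high in each 10 µM library and below every control in the 20 µM library. The 1 gene apart on the higher side, the cholesterol exporter ABCG1, was at 0.443 CPM in the 20 µM library and at 0 in 6 of the 8 libraries, too low for its size to be read.

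**Figure D2:**
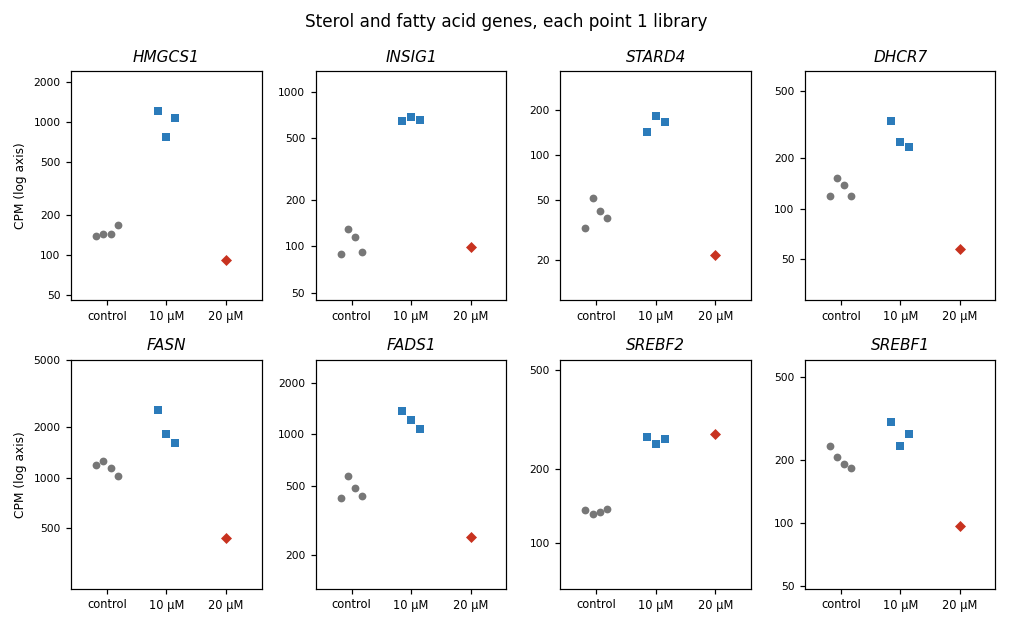
Level in CPM (log axis) of 8 sterol and fatty acid genes, 1 point per library for the 4 controls, the 3 libraries at 10 µM and the 20 µM library. HMGCS1, INSIG1, STARD4, DHCR7, FASN and FADS1 are higher in every 10 µM library than in the 20 µM library, SREBF1 (97.1 CPM) is lowest in the 20 µM library, and SREBF2 (275 CPM) is near its 10 µM level.

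Genes of the ATF4-CHOP response stood higher in the 20 µM library. Of 33 genes, 27 were apart higher and none lower, edgeR called 26 higher and none lower, and the median log2 difference was 2.13. In all 33 the 20 µM library lay above every control, against 46.5% of all genes tested. At 10 µM edgeR called 16 higher than the controls. The 10 µM libraries were not alike: replicate 4 was the highest of the 3 in 30 of 33 genes, against 42.4% of all genes tested. The group medians against the controls were 0.49 and 0.33 in replicates 2 and 3, 1.34 in replicate 4 and 2.78 in the 20 µM library.

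ATF3 (chromosome 1, 212565334 to 212620777, plus strand), a stress-induced repressor and activator of the ATF family, was at 9.82, 3.1, 3.26 and 7.36 CPM in controls 1 to 4, 20.2, 36.9 and 63.8 at 10 µM and 608 at 20 µM. All 10 µM libraries were above every control, and the 20 µM library was 16.8-fold above their mean, with an edgeR log2 fold change of 3.93 ± 0.60 (SE; adjusted p = 0.00227). DDIT3, which encodes CHOP, was at 24.2, 9.23, 9.95 and 21.7 CPM in controls 1 to 4, 48.1, 41.9 and 93.5 at 10 µM and 359.9 at 20 µM (edgeR adjusted p = 0.00647). CEBPB, a leucine zipper factor that pairs with CHOP, was at 34.1, 23.9, 20.8 and 26.8 CPM in controls 1 to 4, 40.0, 34.8 and 58.6 at 10 µM and 363 at 20 µM (edgeR adjusted p = 0.000207). In both, every 10 µM library lay above every control and the 20 µM library above them all. GDF15, a secreted stress cytokine, was at 17.9 to 44.8 CPM in controls, 159 to 205 at 10 µM and 881 at 20 µM. ADM2, a peptide of the adrenomedullin family, was at 0.123 to 1.68 CPM in controls, 2.67 to 10.7 at 10 µM and 61 at 20 µM, but its edgeR adjusted p of 0.025 became 0.0547 with the replicate number as a block. ATF5, a partner of ATF4 in the mitochondrial stress response, was at 174, 50.0, 45.3 and 163 CPM in controls 1 to 4, 61.4, 55.9 and 369 at 10 µM and 955 at 20 µM. Controls 1 and 4 and 10 µM replicate 4 were high together, the difference from replicate 4 alone was 1.42 on the log2 scale, and the edgeR adjusted p was 0.0791, or 0.00286 with the block. NUPR1, a small chromatin protein, was at 0 to 0.425 CPM in controls, 0 to 1.93 at 10 µM and 12 at 20 µM, with 0 in 3 libraries. The asparagine synthetase ASNS and the pseudokinase gene TRIB3 were at 55.7 to 87.9 CPM in controls, 139.7 to 198 at 10 µM and 376 at 20 µM and at 40.7 to 58.5 CPM in controls, 80.4 to 159.9 at 10 µM and 779 at 20 µM. ADM2 lost its edgeR call without 10 µM replicate 2 (adjusted p = 0.0839) or 10 µM replicate 3 (adjusted p = 0.075).

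The tRNA synthetases, some of which are known ATF4 targets, lay on both sides. Of 20, edgeR called 8 higher and 6 lower (2 lower with the replicate block), and the median was -0.15. Against the controls of the same number the median was 0.13. WARS1, GARS1 and SARS1, for tryptophan, glycine and serine, were at 1102, 1027 and 661 CPM in the 20 µM library, against 293, 271 and 411 CPM, 306, 305 and 411 CPM and 294, 259.8 and 276 CPM at 10 µM. FARSB, a subunit for phenylalanine, was at 110.2, 133 and 122 CPM at 10 µM and 52.3 at 20 µM, below all other libraries (edgeR adjusted p = 0.0021).

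Genes of folding and degradation in the endoplasmic reticulum were higher by smaller factors. Of 26 genes, 10 were apart higher, edgeR called 19 higher, none were lower by either rule, and the median was 0.85. At 10 µM edgeR called 4 of these genes higher and 4 lower than the controls. All 10 µM libraries lay above every control in 8 and below every control in 5, against 21.8% and 10.7% of all genes tested. Members thus lay on both sides of the controls while the group medians against them were -0.07, 0.00 and 0.04. Some of these genes carry the endoplasmic reticulum stress element, to which NF-Y and ATF6 are known to bind. Its pattern of 19 bases was searched on both strands in the 250 bases before the RefSeq gene start (GRCh38.p14). The motif was in 7 of 25 members with a promoter in the table, and in 15 of 11754 tested genes with one (0.128%). Windows of 100 bases around the match, with the motif in capitals, are shown for the 3 members whose chaperone or transcription factor role is best known: HSPA5 at chr9:125241351-125241450 (minus strand), HSP90B1 at chr12:103930175-103930274 (plus strand) and XBP1 at chr22:28800570-28800669 (minus strand).
HSPA5: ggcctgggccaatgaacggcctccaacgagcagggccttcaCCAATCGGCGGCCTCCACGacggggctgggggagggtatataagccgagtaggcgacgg
HSP90B1: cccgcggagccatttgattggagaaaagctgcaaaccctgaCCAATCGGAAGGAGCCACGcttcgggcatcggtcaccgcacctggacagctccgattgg
XBP1: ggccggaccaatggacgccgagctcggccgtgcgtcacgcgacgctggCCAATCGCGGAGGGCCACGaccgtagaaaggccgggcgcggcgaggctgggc
The median log2 difference was 0.83 in the 7 members with the motif and 0.90 in the 18 without it, so the members did not part by it. A match is a string of letters and does not show binding.

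HSPA5 (chromosome 9, 125234853 to 125241330, minus strand), the Hsp70 chaperone BiP, was at 489, 641, 669.5 and 508 CPM in controls 1 to 4, 589, 683 and 821 at 10 µM and 3247 at 20 µM. The 10 µM libraries overlapped with the controls, and the 20 µM library was 4.69-fold above their mean, with an edgeR log2 fold change of 2.22 ± 0.23 (SE; adjusted p = 0.000519). HERPUD1, a membrane protein of the degradation pathway, was at 16.9, 14.5, 12.7 and 15.7 CPM in controls 1 to 4, 32.2, 31.7 and 43.8 at 10 µM and 229 at 20 µM (edgeR adjusted p = 9.07e-05). DNAJB9, a co-chaperone of BiP, was at 7.15 to 10.3 CPM in controls, 10.4 to 25.1 at 10 µM and 109 at 20 µM, and EDEM1, which marks misfolded glycoproteins for removal, was at 39.5 to 57 CPM in controls, 71.7 to 133 at 10 µM and 357 at 20 µM. HSP90B1, the Hsp90 of this compartment, was at 641 to 932 CPM in controls, 772 to 797 at 10 µM and 1336 at 20 µM, and XBP1 was at 81.7 to 87.5 CPM in controls, 94.5 to 136 at 10 µM and 406 at 20 µM. SEC61A1, the pore of the translocon, was at 321, 299, 318 and 313 CPM in controls 1 to 4, 279, 266 and 274 at 10 µM and 698 at 20 µM. Its 10 µM libraries were all below the controls (edgeR adjusted p = 0.035) and its 20 µM library above all others (edgeR adjusted p = 0.000328).

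**Figure D3:**
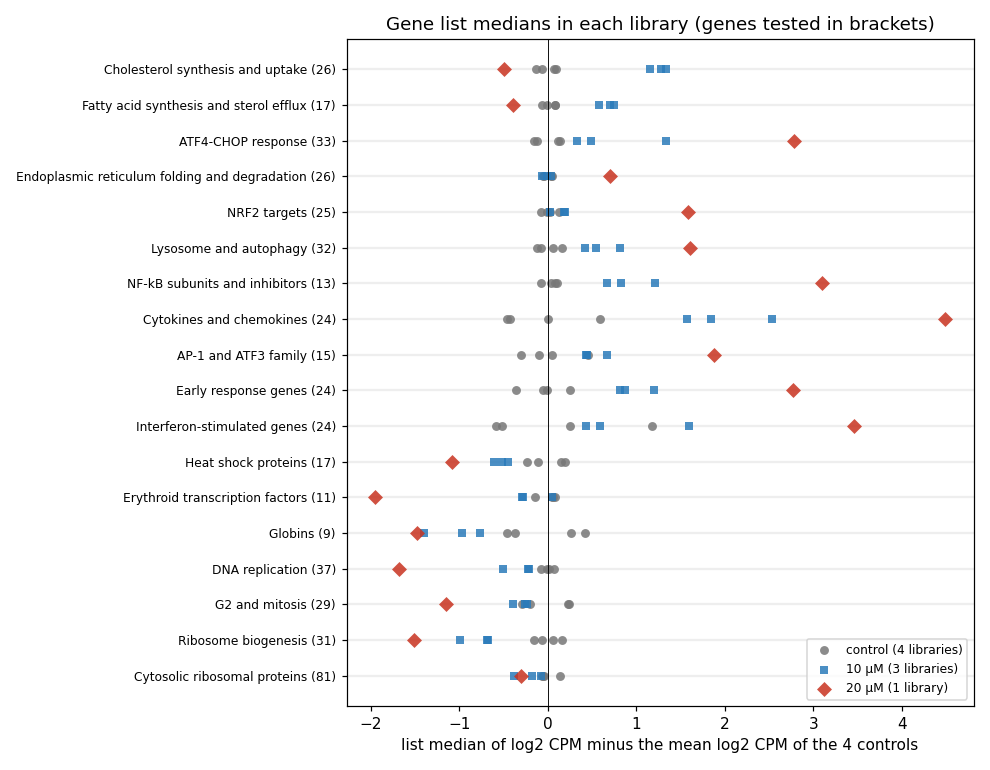
For 18 gene groups, the median over the members of the log2 CPM minus the mean of the 4 controls, 1 point per library. The 20 µM library is the highest of the 8 for the cytokine (4.49), ATF4-CHOP (2.78) and NF-kB (3.09) groups and the lowest for the erythroid transcription factors (-1.95) and DNA replication (-1.68), and for cholesterol synthesis it lies at -0.49 while the 10 µM libraries lie between 1.15 and 1.33.

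NF-kB genes and cytokines were higher in the 20 µM library. Of 13 subunits and inhibitors of NF-kB, 11 were apart higher and 11 called higher by edgeR, none lower, with a median of 1.82. Of 24 cytokine and chemokine genes, 19 were apart higher and 10 called higher, none lower, with a median of 2.61. Several of the second group were near 0 outside the 20 µM library. In 15 of 24 every 10 µM library already lay above every control, against 21.8% of all genes tested. The kB motif, a pattern of 9 bases, was searched on both strands in the same promoters. It was in 6 of 11 NF-kB genes and 6 of 15 cytokines, against 5.84% of all tested genes with a promoter. Shown with the motif in capitals are CXCL8 at chr4:73740432-73740531 (plus strand) and TNFAIP3 at chr6:137867146-137867245 (plus strand), a chemokine and a feedback inhibitor from the 2 groups.
CXCL8: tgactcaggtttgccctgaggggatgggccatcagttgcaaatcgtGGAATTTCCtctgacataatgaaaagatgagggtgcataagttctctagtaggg
TNFAIP3: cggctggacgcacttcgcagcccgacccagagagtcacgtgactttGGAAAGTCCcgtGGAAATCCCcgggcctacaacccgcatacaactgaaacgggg
The median log2 difference was 2.26 in the 6 NF-kB genes with the motif and 1.41 in the 5 without, and 3.04 in the 6 cytokines with it and 2.53 in the 9 without. Elements of other groups were searched in the same way. The sterol element was in 1 of 19 cholesterol promoters (0.834% of all). The heat shock element was in 1 of 16 heat shock promoters (0.323%). The ATF4 element was in 3 of 27 ATF4-CHOP promoters (1.68%) and the AP-1 element in 0 of 12 AP-1 family promoters (4.38%). The median was -1.61 in the 18 cholesterol genes without the element, and its 1 carrier was at 0.08. For the ATF4 element it was 2.34 with and 2.08 without.

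CXCL8 (chromosome 4, 73740506 to 73743716, plus strand), the neutrophil chemokine interleukin 8, was at 2.4, 1.1, 0.847 and 1.99 CPM in controls 1 to 4, 52.2, 199 and 169 at 10 µM and 1222 at 20 µM. The controls were low, every 10 µM library was far above them, and the 20 µM library was 10.1-fold above the 10 µM mean. Its edgeR log2 fold change was 6.33 ± 0.52 for 10 µM against control (SE; adjusted p = 0.000466) and 3.12 ± 0.59 for 20 µM against 10 µM (SE; adjusted p = 0.00548). RELB, the subunit of the non-canonical NF-kB dimer, was at 1.7, 0.886, 0.177 and 1.52 CPM in controls 1 to 4, 5.61, 5 and 10.5 at 10 µM and 129 at 20 µM (edgeR adjusted p = 0.00337). TNFAIP3, the ubiquitin-editing enzyme A20 that ends NF-kB signalling, was at 6.91, 1.53, 2.16 and 5.89 CPM in controls 1 to 4, 8.56, 15.1 and 30.0 at 10 µM and 149.8 at 20 µM (edgeR adjusted p = 0.0135). In all 3 genes the 20 µM library was far above the others. NFKB1, the p105 precursor, was at 44.2 to 54.6 CPM in controls, 45.1 to 54.5 at 10 µM and 105 at 20 µM, a smaller difference. BCL3, a nuclear IkB protein, was at 0.304 to 4.14 CPM in controls, 0.787 to 6.19 at 10 µM and 26.7 at 20 µM, and its edgeR adjusted p was 0.0781. TRAF1, an adaptor of TNF receptors, was at 0.219, 0.0616, 0 and 0 CPM in controls 1 to 4, 1.38, 2.14 and 1.32 at 10 µM and 32.9 at 20 µM, and its edgeR adjusted p of 0.0165 became 0.671 with the replicate block. TNF itself was at 0 to 0.0126 CPM in controls, 0.0415 to 0.506 at 10 µM and 10.1 at 20 µM. The chemokines CCL5, CCL3 and CXCL10 were at 58.9, 13.4 and 87.4 CPM in the 20 µM library, and at 0.083, 0.211 and 3.51 CPM, 0.263, 0 and 0.592 CPM and 0.235, 0.394 and 12 CPM at 10 µM. CCL5 was at 0.156, 0, 0 and 0.0218 CPM in controls 1 to 4. Its edgeR adjusted p was 0.0257, and 0.563 with the block. For CCL3 these were 0.0351 and 1, and for CXCL10 0.0542 and 0.0106. CCL4 was at 1.87 CPM in the 20 µM library and at 0 in 6 others. TRAF1 lost its edgeR call without 10 µM replicate 2 (adjusted p = 0.0631). CCL5 lost its edgeR call without 10 µM replicate 2 (adjusted p = 0.0555) or 10 µM replicate 3 (adjusted p = 0.0703). CCL3 lost its edgeR call without 10 µM replicate 2 (adjusted p = 0.123).

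Factors of the AP-1 family, which act on stress and growth signals, were higher as well. Of 15 genes 11 were apart higher and 10 called higher by edgeR, with a median of 2.14. MAFF, a small Maf protein, was at 4.54, 7.2, 6.74 and 5.02 CPM in controls 1 to 4, 15.9, 20.8 and 24 at 10 µM and 175 at 20 µM (edgeR adjusted p = 0.000328), and FOSL2, a Fos protein, was at 1.6 to 7.67 CPM in controls, 4.29 to 15.2 at 10 µM and 80.5 at 20 µM (edgeR adjusted p = 0.016). For JUND the large difference came from 1 library: it was at 217, 161, 141 and 185 CPM in controls 1 to 4, 346, 278 and 2.48 at 10 µM and 451 at 20 µM, so 10 µM replicate 4 stood far below the other 7 and JUND was not apart. Of 24 early response genes 12 were apart higher and 8 called higher, with a median of 1.13. IER3, an early response gene of NF-kB and ERK signalling, was at 15.8, 0.985, 0.784 and 1.78 CPM in controls 1 to 4, 5.12, 8.05 and 10.0 at 10 µM and 329 at 20 µM. The 20 µM library was highest and control 1 came next, so the difference of 5.46 on the log2 scale against the 10 µM mean was 1.73 in the edgeR fit with the replicate block (adjusted p = 0.013 without and 0.00491 with it). KLF2 and KLF4, Kruppel-like factors, were at 0.645 to 1.12 CPM in controls, 0.318 to 2.5 at 10 µM and 27.8 at 20 µM and at 0.481 to 3.9 CPM in controls, 1.15 to 7.06 at 10 µM and 58.5 at 20 µM (edgeR adjusted p = 0.00313 and 0.023). ARC was at 0.0436 to 0.326 CPM in controls, 0 to 0.394 at 10 µM and 2.33 at 20 µM. EGR3, a zinc finger factor of the same class, was at 0.226, 0.185, 0.0632 and 0.142 CPM in controls 1 to 4, 4.19, 6.72 and 5.33 at 10 µM and 5.53 at 20 µM, so its level at 20 µM lay within the 10 µM range and far above the controls. Of 17 genes for MAP kinase phosphatases and Sprouty proteins, which end MAP kinase signals, 8 were apart higher, edgeR called 7 higher and 1 lower, and the median was 1.25. Against the controls of their own number 3 were apart higher. DUSP5, an ERK phosphatase of the nucleus, was at 3.96, 3.52, 4.22 and 3.19 CPM in controls 1 to 4, 9.29, 12.4 and 16.4 at 10 µM and 81.8 at 20 µM (edgeR adjusted p = 0.000499). DUSP8, a phosphatase of JNK and p38, was at 3.7, 0.308, 0.24 and 1.24 CPM in controls 1 to 4, 7.76, 7.76 and 8.93 at 10 µM and 128 at 20 µM, with an edgeR adjusted p of 0.0163 and, with the block, 0.182. MAP kinase phosphatase and Sprouty genes called higher by edgeR numbered 4 without 10 µM replicate 2 and 4 without 10 µM replicate 3. FOSL2 lost its edgeR call without 10 µM replicate 2 (adjusted p = 0.0583) or 10 µM replicate 3 (adjusted p = 0.0533). IER3 lost its edgeR call without 10 µM replicate 2 (adjusted p = 0.054). KLF4 lost its edgeR call without 10 µM replicate 2 (adjusted p = 0.0719) or 10 µM replicate 3 (adjusted p = 0.0744). DUSP8 lost its edgeR call without 10 µM replicate 2 (adjusted p = 0.0595) or 10 µM replicate 3 (adjusted p = 0.0577).

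**Figure D4:**
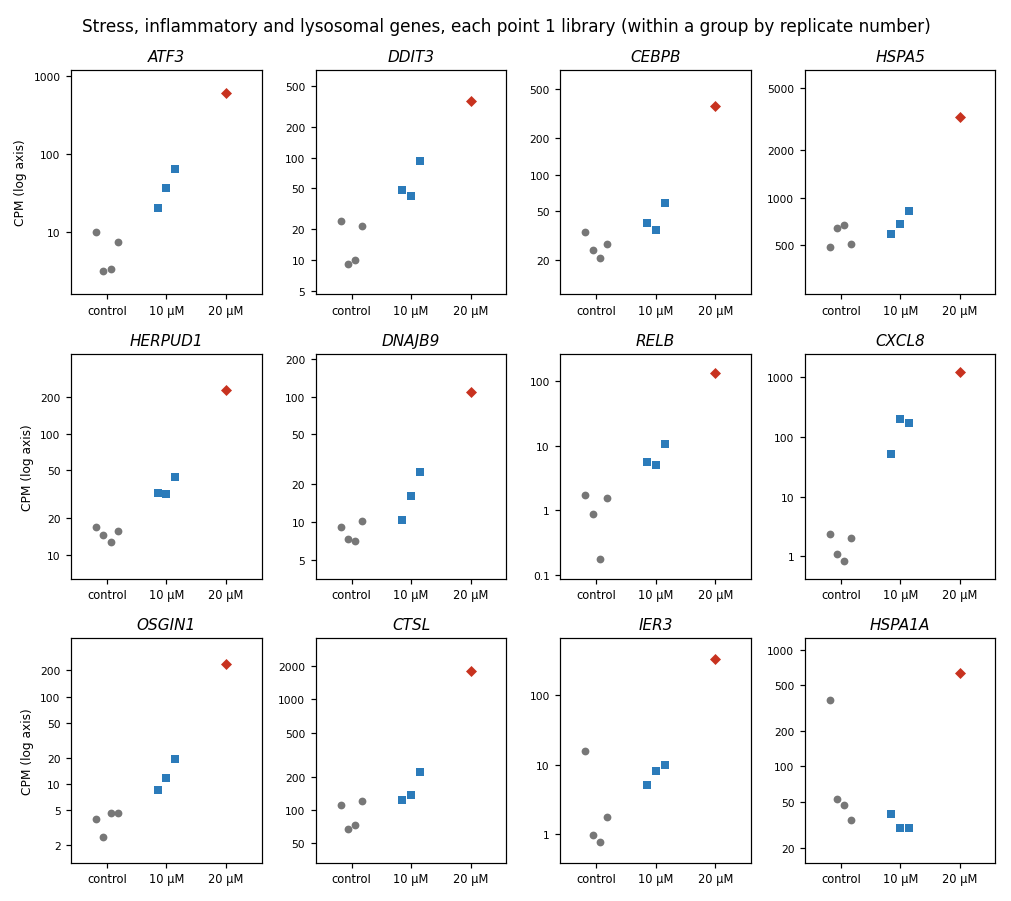
Level in CPM (log axis) of 12 stress and inflammatory genes, 1 point per library for controls, 10 µM and 20 µM. The 20 µM library is the highest in all 12 panels, from 109 CPM for DNAJB9 to 3247 CPM for HSPA5, while in the IER3 and HSPA1A panels control 1 (15.8 and 369 CPM) is the next highest.

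Interferon-stimulated genes were higher in the 20 µM library. Of 24, 17 were apart higher and none lower, edgeR called 11 higher and 1 lower, and the median was 2.73. Against the mean of the controls the group median was 1.18 in control 1, 0.59, 0.43 and 1.60 in the 10 µM libraries and 3.46 in the 20 µM library. Set against the controls of their own number, 8 of the genes were apart higher in the 20 µM library. The interferon-stimulated response element, bound by ISGF3 and IRF factors, was searched as a pattern of 10 bases on both strands. It was in 11 of 17 of these promoters and in 2.58% of all, and the median difference was 3.00 with and 2.05 without it. Shown with the motif in capitals are IFIT1 at chr10:89392462-89392561 (plus strand) and ISG15 at chr1:1013339-1013438 (plus strand), each with 2 matches.
IFIT1: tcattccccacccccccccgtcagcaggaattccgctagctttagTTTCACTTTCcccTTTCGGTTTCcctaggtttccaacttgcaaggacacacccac
ISG15: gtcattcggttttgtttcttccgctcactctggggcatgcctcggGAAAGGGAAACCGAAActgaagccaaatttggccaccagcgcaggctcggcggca
IFIT1, which binds foreign RNA ends, was at 0.609, 0.185, 0.152 and 0.229 CPM in controls 1 to 4, 2.71, 2.12 and 9.72 at 10 µM and 30.9 at 20 µM. The 10 µM libraries were above the controls and the 20 µM library above both, with an edgeR adjusted p of 0.0332, or 0.172 with the block. RSAD2, the antiviral enzyme viperin, was at 2.77, 0.936, 0.658 and 2.37 CPM in controls 1 to 4, 1.27, 1.77 and 10.3 at 10 µM and 95.5 at 20 µM (edgeR adjusted p = 0.01), with 10 µM replicate 4 highest of its group. ISG20, an exonuclease, was at 0.215 to 1.03 CPM in controls, 0.815 to 3.76 at 10 µM and 54.6 at 20 µM (edgeR adjusted p = 0.00359). IFIT2 was at 0.644, 0.148, 0 and 0.261 CPM in controls 1 to 4, 1.18, 1.05 and 22.9 at 10 µM and 107 at 20 µM, with an edgeR adjusted p of 0.0911. ISG15, a ubiquitin-like modifier, was at 11.3, 5.8, 5.65 and 7.37 CPM in controls 1 to 4, 22.7, 15.9 and 23.6 at 10 µM and 78.1 at 20 µM. IFI16, a nuclear DNA sensor that interferon also raises, was at 6.14, 3.24, 1.71 and 4.31 CPM in controls 1 to 4, 12.2, 12.6 and 15.6 at 10 µM and 185 at 20 µM and had 1 of the 15 largest gaps among genes whose mean log2 CPM reached 1 (edgeR adjusted p = 0.000675). Interferon-stimulated genes called higher by edgeR numbered 6 without 10 µM replicate 2 and 6 without 10 µM replicate 3. IFIT1 lost its edgeR call without 10 µM replicate 2 (adjusted p = 0.0986) or 10 µM replicate 3 (adjusted p = 0.0861).

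Antioxidant genes under NRF2 were higher too. Of 25, 13 were apart higher and none lower, edgeR called 16 higher and none lower, and the median was 1.22. At 10 µM edgeR called 5 higher and 4 lower than the controls, and the group medians against them were 0.03, 0.18 and 0.19. OSGIN1, an oxidative stress induced growth inhibitor, was at 3.95, 2.5, 4.69 and 4.68 CPM in controls 1 to 4, 8.48, 11.6 and 19.1 at 10 µM and 233 at 20 µM, 18.9-fold above the 10 µM mean (edgeR log2 fold change 4.17 ± 0.39, SE; adjusted p = 0.000328). GCLC, the catalytic subunit of the first step of glutathione synthesis, was at 29.3, 26, 29.1 and 30.4 CPM in controls 1 to 4, 21.7, 25.3 and 47.4 at 10 µM and 174 at 20 µM (edgeR adjusted p = 0.000962). In GCLC the 10 µM libraries straddled the controls and only the 20 µM library was above them. SQSTM1, the autophagy receptor p62, was at 124 to 198 CPM in controls, 515 to 727 at 10 µM and 3202 at 20 µM (edgeR adjusted p = 0.00035). SRXN1, which repairs oxidised peroxiredoxins, was at 62.1, 64.9, 72.8 and 64.6 CPM in controls 1 to 4, 43.2, 43.2 and 54.6 at 10 µM and 145 at 20 µM: lower than the controls at 10 µM (edgeR adjusted p = 0.0096) and higher than all at 20 µM (adjusted p = 0.000499). HMOX1, heme oxygenase 1 and a known NRF2 target, was under 1 CPM in every library, at 0.127, 0, 0 and 0 CPM in controls 1 to 4, 0.29, 0.0281 and 0 at 10 µM and 0.137 at 20 µM. Of 10 metallothioneins, small metal-binding proteins, 5 were apart higher and 4 called higher by edgeR, all of low level: MT1G was at 0.0283, 0.0492, 0.152 and 0.0545 CPM in controls 1 to 4, 1.11, 0.998 and 1.13 at 10 µM and 7.36 at 20 µM (edgeR adjusted p = 0.0197), and MT1F was at 7.15 CPM in the 20 µM library. NRF2 targets called lower by edgeR numbered 1 without control 1. Metallothioneins called higher by edgeR numbered 2 without 10 µM replicate 3. MT1G lost its edgeR call without 10 µM replicate 2 (adjusted p = 0.0536) or 10 µM replicate 3 (adjusted p = 0.0609).

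Ferroptosis regulators, the genes nearest to the known action of liproxstatin-1, lay on both sides. Of 24, 5 were apart higher and 5 lower, edgeR called 7 higher and 9 lower, and the median was 0.01. With the filter of 1 CPM in 3 libraries the median was -0.21. Among the 5 higher, ALOXE3 was at 0.757 CPM at 20 µM, 0 to 0.0413 at 10 µM and 0 to 0.0871 in controls. Against the controls of the same number 4 were apart higher and 3 lower. SLC7A11, the cystine importer and also an ATF4 target, was at 25, 23.8, 14.8 and 26.6 CPM in controls 1 to 4, 49.2, 75.4 and 118 at 10 µM and 453 at 20 µM (edgeR adjusted p = 0.00184). It was higher in each 10 µM library than in any control and higher again in the 20 µM library. SAT1, the polyamine acetyltransferase, was at 10.4, 10.2, 11.5 and 12.1 CPM in controls 1 to 4, 29.7, 35.8 and 35.8 at 10 µM and 217 at 20 µM (edgeR adjusted p = 9.07e-05), and the lipoxygenase ALOX12 was at 1.61 to 5.42 CPM in controls, 2.5 to 10.9 at 10 µM and 41.1 at 20 µM (edgeR adjusted p = 0.021). GPX4, the lipid hydroperoxidase that holds ferroptosis back, was at 164, 137, 152 and 136 CPM in controls 1 to 4, 159, 136 and 163 at 10 µM and 235 at 20 µM. The 20 µM value was the highest of the 8, by 0.62 on the log2 scale over the 10 µM mean, with an edgeR adjusted p of 0.0188, or 0.183 with the block. On the lower side, SLC40A1, the iron exporter ferroportin, was at 51.2 to 71.9 CPM in controls, 43.5 to 58.2 at 10 µM and 12.9 at 20 µM (edgeR adjusted p = 0.00186), and LPCAT3, which loads polyunsaturated acyl chains into phospholipids, was at 28.6 to 37.1 CPM in controls, 25.6 to 30.4 at 10 µM and 9.04 at 20 µM (edgeR adjusted p = 0.00318). ACSL4, which activates those fatty acids, was at 43.3, 54.1, 51.2 and 43.4 CPM in controls 1 to 4, 113, 144 and 101 at 10 µM and 54.7 at 20 µM: high in the 10 µM libraries and just above the controls in the 20 µM library. TFRC, the transferrin receptor that brings in iron, was high at 10 µM and below every control at 20 µM, being at 648 to 849 CPM in controls, 1107 to 1329 at 10 µM and 495 at 20 µM (edgeR adjusted p = 0.00433). Ferroptosis regulators called higher by edgeR numbered 4 without 10 µM replicate 3. ALOX12 lost its edgeR call without 10 µM replicate 2 (adjusted p = 0.06) or 10 µM replicate 3 (adjusted p = 0.0654). GPX4 lost its edgeR call without 10 µM replicate 3 (adjusted p = 0.0573).

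Of 32 lysosome and autophagy genes, 12 were apart higher and none lower, edgeR called 18 higher and 1 lower, and the median was 0.97. At 10 µM edgeR had already called 20 of them higher than the controls. CTSL, the lysosomal protease cathepsin L, was at 112, 66.6, 73.3 and 120.4 CPM in controls 1 to 4, 123, 138 and 219 at 10 µM and 1782 at 20 µM, 11.5-fold above the 10 µM mean (edgeR adjusted p = 0.000328). WIPI1, which binds the forming autophagosome, was at 16.6, 9.86, 10.4 and 16.5 CPM in controls 1 to 4, 28.5, 24.9 and 42.7 at 10 µM and 180.1 at 20 µM (edgeR adjusted p = 0.000856). MAP1LC3B and GABARAPL1, ubiquitin-like proteins of the autophagosome, were at 81.5 to 98.8 CPM in controls, 164 to 234 at 10 µM and 606 at 20 µM and at 14.3 to 15.8 CPM in controls, 26.6 to 39.8 at 10 µM and 107 at 20 µM. The 1 gene called lower was MITF, a relative of the lysosome regulator TFEB, which was at 24.5 to 27.7 CPM in controls, 26.6 to 31 at 10 µM and 13 at 20 µM (edgeR adjusted p = 0.00537).

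Heat shock genes lay on both sides. Of all genes tested 13.6% were apart higher and 6.49% lower, and the shares of this group were near these. Of 17, 2 were apart higher and 1 lower, edgeR called 6 higher and 3 lower, and the median was -0.46. HSPA1A, the inducible Hsp70, was at 369, 52.9, 46.3 and 34.9 CPM in controls 1 to 4, 38.7, 29.8 and 29.9 at 10 µM and 632 at 20 µM. Its near-identical copy HSPA1B was at 350.4, 58.7, 53.1 and 42.1 CPM in controls 1 to 4, 43, 33.7 and 34.5 at 10 µM and 621 at 20 µM, and reads of the copies may have been split between them. In both, control 1 stood far above controls 2 to 4, so the log2 fold change of HSPA1A in edgeR was 4.26 ± 1.02 (SE; adjusted p = 0.0148), and 1.29 with the replicate block (adjusted p = 0.00368). The mitochondrial chaperonin pair was lower. HSPE1 was at 296, 429.8, 373 and 342 CPM in controls 1 to 4, 207, 183 and 171 at 10 µM and 52.7 at 20 µM (edgeR adjusted p = 0.00184), with the 10 µM libraries below every control and the 20 µM library below them. HSPD1 was at 1145 to 1616 CPM in controls, 814 to 899 at 10 µM and 448 at 20 µM, with an edgeR adjusted p of 0.0209, or 0.0522 with the block. Heat shock proteins called higher by edgeR numbered 2 without 10 µM replicate 3. Heat shock proteins called lower by edgeR numbered 5 without 10 µM replicate 4, 7 without control 1 and 5 without control 2. HSPA1A lost its edgeR call without 10 µM replicate 3 (adjusted p = 0.0543).

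Transcription factors of the red cell lineage were lower in the 20 µM library. Of 11, 9 were apart lower and none higher, edgeR called 10 lower and none higher, and the median was -1.69. All 11 lay below every control, against 30.6% of all genes tested. At 10 µM edgeR called 0 higher and 1 lower than the controls. MYB (chromosome 6, 135181315 to 135219173, plus strand), the factor of immature blood cells, was at 238, 293, 281 and 244 CPM in controls 1 to 4, 278, 283 and 237 at 10 µM and 43.6 at 20 µM. The 10 µM libraries and the controls overlapped, and the 20 µM library was 6.09-fold below the 10 µM mean, with an edgeR log2 fold change of -2.62 ± 0.25 (SE; adjusted p = 0.000355). NFE2, an activator of globin and platelet genes, was at 220.3, 159.9, 172 and 198 CPM in controls 1 to 4, 226, 175 and 178 at 10 µM and 32.5 at 20 µM (edgeR adjusted p = 0.000328). GATA1, the master regulator of the lineage, was at 254, 185, 194 and 217 CPM in controls 1 to 4, 235, 184 and 201 at 10 µM and 63.5 at 20 µM (edgeR adjusted p = 0.00095). In both, the 20 µM library alone stood apart. GFI1B, a repressor that GATA1 works with, was at 71.7 to 84.9 CPM in controls, 63.3 to 91.5 at 10 µM and 18.2 at 20 µM (edgeR adjusted p = 0.000869), and KLF1, the activator of adult globin, was at 176, 173, 175 and 153 CPM in controls 1 to 4, 148, 111 and 80.9 at 10 µM and 29.3 at 20 µM (edgeR adjusted p = 0.00358). KLF1 was lower than the controls at 10 µM too.

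Globin genes, known targets of these factors, were mostly not apart. Of 9 globin genes 1 was apart lower, HBD, at 1.8, 2.05 and 2 CPM at 10 µM and 0.483 at 20 µM. HBZ, the embryonic alpha-like globin, was at 1115, 228, 319 and 834 CPM in controls 1 to 4, 133, 91.1 and 240.1 at 10 µM and 201 at 20 µM, and the alpha globin HBA1, whose reads may be shared with HBA2, was at 1053, 414, 493 and 1036 CPM in controls 1 to 4, 196, 165 and 411 at 10 µM and 270.3 at 20 µM. Both were lower at 10 µM than in the controls (edgeR adjusted p = 0.0273 and 0.0211), and the 20 µM library lay within the 10 µM range. HBG1, a fetal globin, was at 1892, 1147, 1533 and 1913 CPM in controls 1 to 4, 837, 1039 and 1132 at 10 µM and 718 at 20 µM, with an edgeR adjusted p between the doses of 0.218, or 0.0102 with the block. Controls 1 and 4 and 10 µM replicate 4 tended to be high in this group. Of 26 red cell membrane and heme genes 1 was apart higher and 2 lower, edgeR called 9 lower and none higher, and the median was -0.13. ALAS2, the erythroid enzyme that starts heme synthesis, was at 152, 15.9, 15.5 and 154 CPM in controls 1 to 4, 17.8, 12.5 and 107 at 10 µM and 145 at 20 µM. It was high in controls 1 and 4, 10 µM replicate 4 and the 20 µM library, whose column names contain letters, and low in the 4 libraries whose names are digits. SLC4A1, the anion exchanger band 3, split in the same way, at 54.3, 5.61, 4.39 and 55.8 CPM in controls 1 to 4, 4.01, 3.64 and 27.2 at 10 µM and 39.7 at 20 µM. Against 10 µM replicate 4 alone, the differences were 0.48 for ALAS2 and 0.60 for SLC4A1 on the log2 scale. The labels do not call this split a batch, and its part in the differences was not tested. SPTB, the red cell spectrin, was at 169 to 199 CPM in controls, 103 to 177 at 10 µM and 45.8 at 20 µM (edgeR adjusted p = 0.00565). Red cell membrane and heme genes called higher by edgeR numbered 1 without control 1 and 1 without control 3.

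Genes of the megakaryocyte lineage, which K562 cells can also enter, lay on both sides. Of 15, 5 were apart higher and 2 lower, or 3 and 4 against the controls of the same number. The edgeR test called 3 higher and 2 lower, and the median was 0.69. Against the controls of the same number the median was -0.25. The summed level of the group was 373 CPM at 20 µM, 585 to 776 at 10 µM and 422 to 789 in the controls. ITGB3, the platelet integrin beta 3, was at 2.05, 0.64, 0.405 and 2.07 CPM in controls 1 to 4, 6.9, 11.7 and 12.9 at 10 µM and 90.1 at 20 µM (edgeR adjusted p = 0.0092). GP1BB, part of the platelet receptor for von Willebrand factor, was at 594, 330.3, 298 and 408 CPM in controls 1 to 4, 593, 383 and 444 at 10 µM and 56.6 at 20 µM (edgeR adjusted p = 0.00136), and TUBB1, the platelet tubulin, was at 10.0 to 25.7 CPM in controls, 32.5 to 36.1 at 10 µM and 8.28 at 20 µM (edgeR adjusted p = 0.0149).

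Of 17 genes of BCR-ABL1 and STAT5 signalling, 3 were apart higher and 2 lower, with a median of -0.01. Of all genes tested 13.6% were apart higher and 6.49% lower. STAT5A, a transcription factor that BCR-ABL1 activates, was at 801, 864, 913 and 719 CPM in controls 1 to 4, 1055, 880.2 and 772 at 10 µM and 192 at 20 µM, 4.68-fold below the 10 µM mean (edgeR adjusted p = 0.000838). Its relative STAT5B was at 206, 249.5, 220.3 and 193 CPM in controls 1 to 4, 311, 257 and 241 at 10 µM and 199 at 20 µM, inside the range of the controls, and BCR and ABL1 differed by -0.01 and 0.17 on the log2 scale. MYC, the growth regulator, was at 257, 300.2, 298 and 252 CPM in controls 1 to 4, 248, 233 and 209.6 at 10 µM and 708 at 20 µM, the highest by far in the 20 µM library (edgeR adjusted p = 0.000681). GAB2, an adaptor of BCR-ABL1, was at 95.5, 53.2, 55 and 106 CPM in controls 1 to 4, 79.2, 81.4 and 164 at 10 µM and 405 at 20 µM (edgeR adjusted p = 0.00988), and SOCS3, a feedback inhibitor of JAK and STAT signalling, was at 5.17 to 9.9 CPM in controls, 6.51 to 8.57 at 10 µM and 27.3 at 20 µM (edgeR adjusted p = 0.00289).

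**Figure D5:**
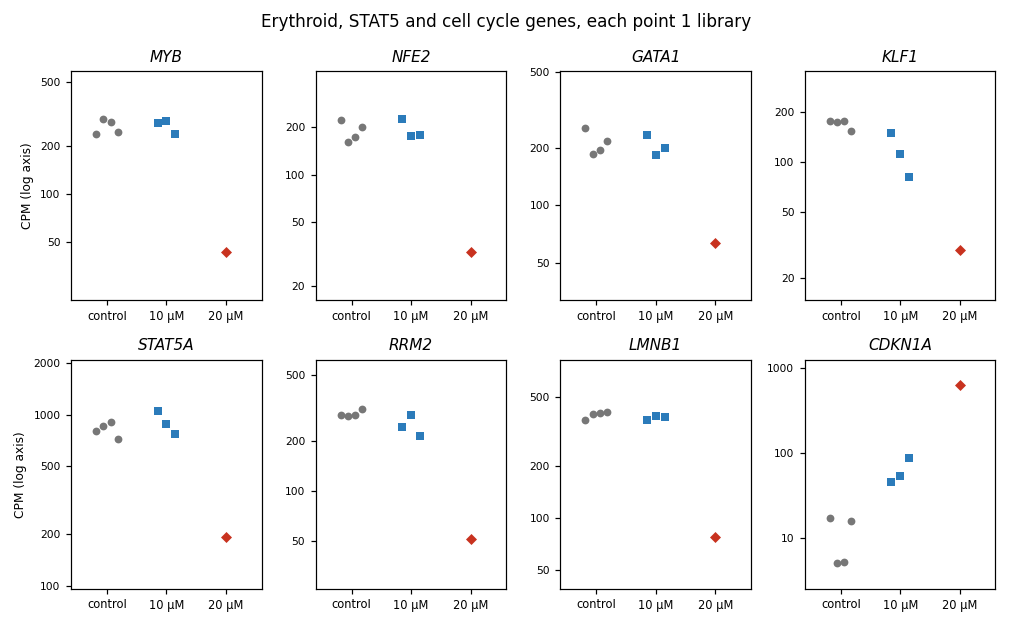
Level in CPM (log axis) of 8 lineage and cell cycle genes, 1 point per library for controls, 10 µM and 20 µM. In the 20 µM library MYB (43.6 CPM), NFE2 (32.5), GATA1 (63.5), KLF1 (29.3), STAT5A (192), RRM2 (51.3) and LMNB1 (78.1) are below all other libraries, and CDKN1A (624) is above them.

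Genes of DNA replication were lower throughout. Of 37, 16 were apart lower, edgeR called 28 lower and none were higher by either rule, and the median was -1.24. In 36 of 37 the 20 µM library lay below every control, against 30.6% of all genes tested. RRM2, the subunit that limits the making of deoxynucleotides, was at 287, 285, 289 and 312 CPM in controls 1 to 4, 243, 288 and 214 at 10 µM and 51.3 at 20 µM (edgeR adjusted p = 0.000388). MCM10, needed to start forks, was at 121, 124, 120.0 and 124 CPM in controls 1 to 4, 95.9, 114 and 76.5 at 10 µM and 25.4 at 20 µM (edgeR adjusted p = 0.00112), and CCNE2, cyclin E2, was at 21 to 33.6 CPM in controls, 23.6 to 43.4 at 10 µM and 7.33 at 20 µM. MCM3, a subunit of the replicative helicase, was at 431 to 489 CPM in controls, 299 to 370.4 at 10 µM and 147 at 20 µM, with a difference of -1.21 on the log2 scale (edgeR adjusted p = 0.00217) without being apart by size.

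Genes of G2 and mitosis were lower by less. Of 29, 9 were apart lower and 1 higher, edgeR called 17 lower and 1 higher, and the median was -0.93. With the replicate block the calls were 8 lower and 0 higher, and against the controls of the same number none was apart on either side. The 1 higher gene, UBE2C, was at 1.63, 0.534 and 0.977 CPM at 10 µM and 4.23 at 20 µM (edgeR adjusted p = 0.0393, or 0.283 with the block). MKI67, the proliferation marker Ki-67, was at 311, 501, 461 and 386 CPM in controls 1 to 4, 369.7, 363 and 310.0 at 10 µM and 141 at 20 µM (edgeR adjusted p = 0.0135), CCNA2, cyclin A2, was at 257 to 323 CPM in controls, 236 to 254 at 10 µM and 93.3 at 20 µM, and TOP2A, a topoisomerase, was at 502 to 901 CPM in controls, 653 to 733 at 10 µM and 249 at 20 µM. LMNB1, lamin B1 of the nuclear envelope, was at 371, 401, 405 and 413 CPM in controls 1 to 4, 371, 392 and 384 at 10 µM and 78.1 at 20 µM, 4.9-fold below the 10 µM mean and with a narrow range among the other 7 libraries (edgeR adjusted p = 0.000137). CDKN1A (chromosome 6, 36676460 to 36687339, plus strand), which encodes the CDK inhibitor p21, was at 17.2, 5.05, 5.22 and 15.6 CPM in controls 1 to 4, 45.6, 53.3 and 87.8 at 10 µM and 624 at 20 µM (edgeR log2 fold change 3.33 ± 0.58, SE; adjusted p = 0.00385). It was higher in each 10 µM library than in any control and 10.4-fold above the 10 µM mean in the 20 µM library. GADD45B, a growth arrest gene, was at 1.73 to 2.94 CPM in controls, 4.26 to 7.67 at 10 µM and 60.8 at 20 µM (edgeR adjusted p = 0.000328), and GADD45A was at 100.1 to 155 CPM in controls, 207 to 239.7 at 10 µM and 361 at 20 µM, with an edgeR adjusted p of 0.0438, or 0.3 with the block. Of all genes tested 13.6% were apart higher and 6.49% lower, or 8.24% and 7.31% against the controls of the same number. Of 20 antiproliferative and CDK inhibitor genes in all, 3 were apart higher and 3 lower, or 3 and 1 against the controls of the same number. The lower ones CDKN2A and CDKN2B were near 0 in control 1 and the 20 µM library, at 0.113, 1.43, 1.59 and 1.11 CPM in controls 1 to 4, 3.97, 1.81 and 1.6 at 10 µM and 0.0724 at 20 µM for CDKN2A (edgeR adjusted p = 0.0456, or 0.455 with the block). CDKN2B was at 0.0283, 0.8, 0.784 and 0.675 CPM in controls 1 to 4, 0.747, 1.63 and 1.16 at 10 µM and 0 at 20 µM. G2 and mitosis genes called higher by edgeR numbered 0 without 10 µM replicate 3, 0 without 10 µM replicate 4, 0 without control 2 and 0 without control 4. UBE2C lost its edgeR call without 10 µM replicate 3 (adjusted p = 0.0958), 10 µM replicate 4 (adjusted p = 0.0865), control 2 (adjusted p = 0.0546) or control 4 (adjusted p = 0.0529). GADD45A lost its edgeR call without 10 µM replicate 2 (adjusted p = 0.112), 10 µM replicate 3 (adjusted p = 0.0721) or 10 µM replicate 4 (adjusted p = 0.0941). CDKN2A lost its edgeR call without 10 µM replicate 2 (adjusted p = 0.0896), 10 µM replicate 3 (adjusted p = 0.0719), 10 µM replicate 4 (adjusted p = 0.0513), control 2 (adjusted p = 0.0593), control 3 (adjusted p = 0.0538) or control 4 (adjusted p = 0.0641).

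Replication-dependent histones, whose messages lack a poly(A) tail, were mostly not apart by size. How far these libraries hold messages without a tail was not tested. Of 54, 6 were apart lower and 1 higher, with a median of -0.61. The group median against the controls was 1.25, 1.27 and 0.48 at 10 µM and 0.46 in the 20 µM library. By this median the 20 µM library was near 10 µM replicate 4. By summed level it was not, at 513 CPM against 1334, 1222 and 887 CPM at 10 µM. That sum lay within the 466 to 741 CPM of the controls. H2BC4, a histone H2B gene, was at 5.41, 11, 10.8 and 6.93 CPM in controls 1 to 4, 20.4, 23.3 and 10.9 at 10 µM and 4.27 at 20 µM (edgeR adjusted p = 0.0318). H2BC4 lost its edgeR call without 10 µM replicate 2 (adjusted p = 0.0682) or 10 µM replicate 3 (adjusted p = 0.0689).

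Ribosome biogenesis genes were lower by small factors. Of 31, 3 were apart lower, or 1 against the controls of the same number, edgeR called 19 lower and none higher, and the median was -0.75. They were already lower at 10 µM, where every library lay below every control in 27 of 31, against 10.7% of all genes tested. UTP20 and WDR12, assembly factors of the small and the large subunit, were at 186 to 245 CPM in controls, 109 to 118 at 10 µM and 42.5 at 20 µM and at 123 to 163 CPM in controls, 115 to 125 at 10 µM and 44.2 at 20 µM. NHP2, a protein of the pseudouridine guide particles, was at 156 to 168 CPM in controls, 101 to 132 at 10 µM and 45.3 at 20 µM (edgeR adjusted p = 0.00158). PES1 was at 206 to 219.9 CPM in controls, 105 to 128 at 10 µM and 89.6 at 20 µM, so most of its difference from the controls was present at 10 µM. The 81 cytosolic ribosomal protein genes had a median of -0.11, with 3 apart higher, or 1 against the controls of the same number, and none lower. Of those, RPL21 and RPL41, which have many copies in the genome, were high in control 1 too, at 341, 32.2, 43 and 40.6 CPM in controls 1 to 4, 40.0, 44.8 and 51.3 CPM at 10 µM and 299 CPM in the 20 µM library for RPL21. RPL41 was at 1037, 392, 389 and 371 CPM in controls 1 to 4, 425, 338 and 309 at 10 µM and 878 at 20 µM. None of the 33 proteasome genes was apart. The edgeR test called 1 higher and 8 lower, or 0 and 2 with the replicate block, and the median was -0.38. Ribosome biogenesis genes called higher by edgeR numbered 1 without 10 µM replicate 2. Proteasome subunits called higher by edgeR numbered 0 without 10 µM replicate 3. Proteasome subunits called lower by edgeR numbered 4 without 10 µM replicate 3 and 13 without 10 µM replicate 4.

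Glycolysis genes were partly lower. Of 24, 4 were apart lower and 2 higher, edgeR called 11 lower and 4 higher (2 with the block), and the median was -0.45. LDHA, which turns pyruvate into lactate, was at 1056, 1837, 1951 and 1706 CPM in controls 1 to 4, 1038, 1054 and 1012 at 10 µM and 224 at 20 µM, 4.62-fold below the 10 µM mean (edgeR adjusted p = 0.00313). Control 1 was the lowest control. ALDOC, an aldolase, was at 31.7, 25.9, 30.4 and 28.5 CPM in controls 1 to 4, 87.3, 60.9 and 56.2 at 10 µM and 19.8 at 20 µM: high at 10 µM and below every control at 20 µM (edgeR adjusted p = 0.00266). PFKFB4, a regulator of the phosphofructokinase step, was at 14.4 to 19.9 CPM in controls, 20.5 to 31.9 at 10 µM and 6.93 at 20 µM (edgeR adjusted p = 0.00487). HK2, the hexokinase of proliferating cells, was at 94.1, 161, 159 and 109 CPM in controls 1 to 4, 69, 63.3 and 37.8 at 10 µM and 161 at 20 µM. Every 10 µM library lay below every control, and the 20 µM library lay near the highest controls.

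The title of the series names cell cycle arrest, apoptosis and pyroptosis, and gasdermins are the pore-forming proteins of the last. Of 15 gasdermin and inflammasome genes, 8 were apart higher and 1 lower, edgeR called 4 higher, or 2 with the replicate block, and the median was 1.51. The summed level of the group was not higher, at 577 CPM at 20 µM, 561 to 660 at 10 µM and 656 to 943 in the controls. Against the controls of the same number 5 were apart higher and 2 lower. GSDME, which caspase-3 cleaves, was at 0.34, 0.148, 0.468 and 0.392 CPM in controls 1 to 4, 0.36, 0 and 1.49 at 10 µM and 13.9 at 20 µM, with an edgeR adjusted p of 0.0393, or 0.0771 with the block. AIM2, a sensor of cytosolic DNA, was at 0.262, 0, 0.0506 and 0.0436 CPM in controls 1 to 4, 0.553, 0.942 and 2.01 at 10 µM and 21 at 20 µM (edgeR adjusted p = 0.0207, or 0.44 with the block). In both genes the 20 µM library was several times above every other library, and these were low. GSDMD was at 0.644, 0, 0 and 0.163 CPM in controls 1 to 4, 0.622, 0.506 and 0.936 at 10 µM and 1.94 at 20 µM (edgeR adjusted p = 0.593). CASP1 was at 1.95 CPM in the 20 µM library and 0.0553, 0 and 1.38 CPM at 10 µM (edgeR adjusted p = 0.452). NLRP3 was at 0.0283, 0, 0 and 0 CPM in controls 1 to 4, 0, 0 and 0.0413 at 10 µM and 0.306 at 20 µM. Gasdermin and inflammasome genes called higher by edgeR numbered 1 without 10 µM replicate 2 and 2 without 10 µM replicate 3. Gasdermin and inflammasome genes called lower by edgeR numbered 1 without 10 µM replicate 4 and 1 without control 1. GSDME lost its edgeR call without 10 µM replicate 2 (adjusted p = 0.119) or control 4 (adjusted p = 0.0546). AIM2 lost its edgeR call without 10 µM replicate 2 (adjusted p = 0.0717) or 10 µM replicate 3 (adjusted p = 0.0705).

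Of 13 pro-apoptotic BCL2 family genes, 3 were apart higher and edgeR called 1 higher and none lower, or 2 and 1 with the block. PMAIP1, the BH3-only protein NOXA, was at 30.7, 20.3, 20.7 and 31.6 CPM in controls 1 to 4, 42.8, 62.3 and 92.5 at 10 µM and 233 at 20 µM (edgeR adjusted p = 0.00467). BBC3, the BH3-only protein PUMA, was at 4.87, 4.69, 8.97 and 9.03 CPM in controls 1 to 4, 45.3, 47.9 and 63.6 at 10 µM and 114 at 20 µM. Its 10 µM libraries were already far above the controls (edgeR adjusted p = 0.000775), and the edgeR adjusted p between the doses was 0.0559, or 0.00416 with the block. Among the 3 pro-apoptotic genes apart higher, HRK was at 0 to 0.44 CPM at 10 µM and 5.83 at 20 µM. Also among them, BIK was at 0 at 10 µM and 0.0563 CPM at 20 µM, within the 0.0379 to 0.142 CPM of the controls. Of 10 anti-apoptotic genes 2 were apart higher and 1 lower. BCL2A1, 1 of the 2 higher, was at 0 in each 10 µM library and 0.258 CPM at 20 µM. BIRC3, an inhibitor of apoptosis that NF-kB raises, was at 0.582 to 1.23 CPM in controls, 2.46 to 8.73 at 10 µM and 41.6 at 20 µM (edgeR adjusted p = 0.00587), and BIRC5, survivin, which is made in mitosis, was at 140.4 to 175 CPM in controls, 114 to 139 at 10 µM and 54.7 at 20 µM (edgeR adjusted p = 0.0051). Of 14 death receptor genes 4 were apart higher and edgeR called 6 higher, or 3 with the block. TNFRSF10B, the TRAIL receptor DR5 and a CHOP target, was at 21.2, 19.2, 15.9 and 18.7 CPM in controls 1 to 4, 28, 38.6 and 51.6 at 10 µM and 383 at 20 µM (edgeR adjusted p = 0.000112), and TNFRSF12A, the receptor of TWEAK, was at 15.1 to 28.3 CPM in controls, 37.6 to 55.3 at 10 µM and 166 at 20 µM. TNFRSF9 was at 0 to 0.658 CPM in controls, 5.14 to 11.3 at 10 µM and 131 at 20 µM, with an edgeR adjusted p of 0.0129, or 0.117 with the block. TNFRSF10C, among the death receptor genes apart higher, was at 0.145 CPM at 20 µM and at 0 in all other libraries. Of all genes tested 13.6% were apart higher, or 8.24% against the controls of the same number, and the caspase shares were near these. Of 14 caspase and apoptosome genes 2 were apart higher, or 1 against the controls of the same number, among them CASP5 at 1.88 CPM in the 20 µM library. The edgeR test called 4 lower and 0 higher. Pro-apoptotic genes called higher by edgeR numbered 2 without 10 µM replicate 3, 2 without 10 µM replicate 4, 3 without control 1, 2 without control 2 and 3 without control 3. Caspase genes called higher by edgeR numbered 2 without 10 µM replicate 4 and 1 without control 2. TNFRSF9 lost its edgeR call without 10 µM replicate 2 (adjusted p = 0.0524).

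Among genes whose mean log2 CPM reached 1, the 15 with the largest gap above the 10 µM libraries included IER3, ATF3, RELB, OSGIN1, IFI16, DUSP8, HSPA1A and HSPA1B, given above. KCP, a secreted regulator of BMP signals, was at 1.93, 0.308, 0.177 and 1.06 CPM in controls 1 to 4, 5.64, 4.83 and 8.79 at 10 µM and 231 at 20 µM, 37.1-fold above the 10 µM mean (edgeR adjusted p = 0.0021). C3, complement component 3, was at 2.92, 0.689, 0.443 and 2.56 CPM in controls 1 to 4, 3.69, 3.89 and 8.2 at 10 µM and 102 at 20 µM (edgeR adjusted p = 0.00477), and IRAK2, a kinase of interleukin 1 receptor signalling, was at 2.26 to 6.42 CPM in controls, 8.13 to 13.3 at 10 µM and 133 at 20 µM (edgeR adjusted p = 0.000548). RGS16, which turns off G protein signals, was at 1.43 to 4.23 CPM in controls, 1.56 to 3.25 at 10 µM and 33.7 at 20 µM, NDRG4 was at 0.582 to 1.74 CPM in controls, 3.92 to 6.8 at 10 µM and 74.5 at 20 µM, and C11orf96 was at 0.937 to 2.47 CPM in controls, 5.17 to 7.71 at 10 µM and 103 at 20 µM. In each of these 6 the 20 µM library stood far above all 7 others. NPIPB4 belongs to a family of near-identical copies, so its value of 30.6 CPM against 2.45, 2.01 and 1.93 CPM at 10 µM is uncertain.

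Of genes with a mean log2 CPM reaching 1, the 15 with the largest gap below the 10 µM libraries included several copies of other genes, whose counts are uncertain. GTF2H2C was at 35.8, 33.5 and 26.9 CPM at 10 µM and 0 at 20 µM, CT45A9 at 6.17, 5.68 and 6.15 CPM at 10 µM and 0.0322 at 20 µM and CKMT1B, a copy of CKMT1A, at 2.74, 2.29 and 2.08 CPM at 10 µM and 0.185 at 20 µM. EIF5AL1 was at 1.05, 6.77, 5.31 and 5 CPM in controls 1 to 4, 4.29, 4.06 and 4.05 at 10 µM and 0.386 at 20 µM, and was low in control 1 too. SLX1A, GATD3B and CSNK2A3 were near 0 in control 1 as well, at 1.31, 53.6, 56.6 and 69.9 CPM in controls 1 to 4 for SLX1A, 0.269, 20.5, 20.7 and 22.6 CPM for GATD3B and 0.311, 10.7, 12 and 10.7 CPM for CSNK2A3. They were the only 3 genes whose mean log2 CPM reached 1 in which both replicate 1 libraries lay at least 8-fold below the other 6. PPAN, a ribosome assembly factor, was at 31.4, 130.3, 129 and 129 CPM in controls 1 to 4, 88.2, 66.2 and 61.3 at 10 µM and 5.72 at 20 µM, with control 1 the lowest control. CAVIN2, a coat protein of caveolae, was at 96.1, 96.8, 94.6 and 98.4 CPM in controls 1 to 4, 144, 131 and 134 at 10 µM and 12.9 at 20 µM, 10.5-fold below the 10 µM mean, with little spread within each group (edgeR log2 fold change -3.40 ± 0.17, SE; adjusted p = 7.66e-05). SLCO4C1, an organic anion transporter, was at 3.45, 4.23, 2.95 and 3.83 CPM in controls 1 to 4, 24.7, 30.6 and 31.1 at 10 µM and 2.21 at 20 µM (edgeR adjusted p = 0.000282), and HPGD, which breaks down prostaglandins, was at 3.72 to 9.06 CPM in controls, 13 to 14.9 at 10 µM and 1.2 at 20 µM (edgeR adjusted p = 0.00183). ARHGAP22, a Rac GTPase activating protein, was at 11, 11.6 and 8.12 CPM at 10 µM and 0.258 at 20 µM (edgeR adjusted p = 0.00109). LIN28A, an RNA-binding protein of embryonic cells, was at 9.26, 41.4, 25.1 and 11.6 CPM in controls 1 to 4, 29, 16.9 and 6.29 at 10 µM and 0.523 at 20 µM, and CD36, a fatty acid receptor, at 2.74, 18.1, 13.5 and 3.61 CPM in controls 1 to 4, 10.2, 8.19 and 2.88 at 10 µM and 0.266 at 20 µM. In both, controls 1 and 4 and 10 µM replicate 4 were low as well, and the 20 µM library was the lowest. ANKRD55 had the opposite split, at 28.1, 8.42, 8.31 and 26.7 CPM in controls 1 to 4, 9.57, 7.52 and 21.1 at 10 µM and 0.467 at 20 µM, and was also lowest in the 20 µM library.

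Among genes that edgeR called changed at 10 µM against the controls, some stood at the same level at both doses. These were chosen for lying within the 10 µM range, so their likeness is no finding. BHLHE40, a clock and hypoxia repressor, was at 76.5, 55.7, 46 and 79.4 CPM in controls 1 to 4, 231, 215 and 228 at 10 µM and 228 at 20 µM. PDK4, a kinase that shuts pyruvate out of the mitochondria, was at 0.837 to 3.71 CPM in controls, 8.03 to 16.7 at 10 µM and 12.8 at 20 µM, and SAMD4A and PTPRB were at 5.99 to 10.4 CPM in controls, 23.8 to 34.7 at 10 µM and 30.8 at 20 µM and at 2.07 to 6.83 CPM in controls, 14.9 to 20.9 at 10 µM and 15.4 at 20 µM. On the lower side were HBZ and the alpha globins, RAB5C, an endosomal GTPase, at 85.1 to 187 CPM in controls, 64.7 to 74.9 at 10 µM and 72.4 at 20 µM, and PLD6, a mitochondrial phospholipase, at 27.9 to 32.2 CPM in controls, 10.1 to 13.3 at 10 µM and 11.4 at 20 µM. For BHLHE40 the edgeR log2 fold change from control to 10 µM was 1.69 ± 0.16 (SE; adjusted p = 0.000636), and from 10 to 20 µM it was 0.02 ± 0.24 (SE; adjusted p = 0.963).

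Other genes lay on opposite sides at the 2 doses, and these too were chosen for that pattern. Higher at 10 µM than in the controls and lower at 20 µM than at 10 µM were HMGCS1, SLCO4C1, HPGD and CAVIN2, given above, and METTL7A, a methyltransferase of lipid droplets, at 21.6, 19.8, 15 and 23.3 CPM in controls 1 to 4, 44.5, 40.7 and 53.4 at 10 µM and 5.75 at 20 µM. Lower at 10 µM and higher at 20 µM were SRXN1 and SEC61A1, given above, AEN, a nuclease that p53 raises, at 106, 98.9, 103 and 100.0 CPM in controls 1 to 4, 73.9, 71.2 and 57.1 at 10 µM and 186 at 20 µM, FJX1, at 13, 13.2, 12.7 and 10.4 CPM in controls 1 to 4, 5.72, 6.04 and 4.82 at 10 µM and 16.6 at 20 µM, and FAM83A, at 49, 32.8, 35.9 and 69.6 CPM in controls 1 to 4, 25.9, 27.5 and 35.1 at 10 µM and 128 at 20 µM. SMN2, a copy of SMN1 whose counts are uncertain, was at 3.28 to 13.7 CPM in controls, 1.53 to 2.49 at 10 µM and 21.1 at 20 µM.

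KRT17, a keratin, was at 0.198, 0, 0.0885 and 0.305 CPM in controls 1 to 4, 0, 0.0422 and 0.193 at 10 µM and 9.74 at 20 µM, thus near 0 in all but the 20 µM library (edgeR adjusted p = 0.0119). Of 14 keratin, vimentin and lamin genes 4 were apart higher and 1 lower, or 1 and 1 against the controls of the same number. Of 19 integrin and adhesion genes 8 were apart higher and 2 lower, but when libraries were set against the controls of their own number the counts were 1 and 4. ITGA3, integrin alpha 3, was at 2.99, 0.345, 0.101 and 0.261 CPM in controls 1 to 4, 1.19, 0.59 and 1.38 at 10 µM and 26.6 at 20 µM (edgeR adjusted p = 0.0265, or 0.205 with the block). Of 13 transporters of organic ions and drugs 3 were apart higher. ABCB1, the drug efflux pump P-glycoprotein, was at 11.1, 12.7, 13.7 and 12.1 CPM in controls 1 to 4, 39.3, 53.6 and 44.9 at 10 µM and 204 at 20 µM (edgeR adjusted p = 0.000355). SLCO2B1, an organic anion carrier, was at 3.37, 3.03, 1.91 and 2.51 CPM in controls 1 to 4, 46.7, 47.3 and 30.5 at 10 µM and 141 at 20 µM (edgeR adjusted p = 0.00335), and SLC6A9, a glycine importer, was at 7.87 to 16.6 CPM in controls, 10.1 to 28 at 10 µM and 123 at 20 µM (edgeR adjusted p = 0.00393). For ABCB1 and SLCO2B1 every 10 µM library was above every control and the 20 µM library above every 10 µM library. CD3D, among the lymphocyte markers, was at 21.4, 12.4 and 19.4 CPM at 10 µM and 5.12 at 20 µM and is present in K562 controls at 15.7, 14.6, 12.2 and 15.5 CPM. COL1A1, among the fibroblast markers, was at 9.33 CPM in the 20 µM library, 0.36, 0.295 and 0.206 CPM at 10 µM and 2.45, 0.246, 0 and 0.152 CPM in controls 1 to 4, with an edgeR adjusted p of 0.0604. ITGA3 lost its edgeR call without 10 µM replicate 2 (adjusted p = 0.0792), 10 µM replicate 3 (adjusted p = 0.0884) or 10 µM replicate 4 (adjusted p = 0.0578).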

How the data were processed

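RNA-seq of 8 K562 libraries was analysed. The values deposited by the authors are raw counts in whole numbers, 1 column a library, per the file headers and the values themselves. The submitters' processing notes name the build hg38 and the tools HISAT2, StringTie, bcl2fastq 2.0, limma and DESeq2, without their roles. Of the lines, 19447 name a gene and 9 name none and were dropped. Low counts were not spaced like single reads, so a count may not be 1 read. Tests used R 4.3.3 with edgeR 4.0.16 (quasi-likelihood, TMM scaling, Benjamini-Hochberg at 0.05 over the 14857 genes kept by filterByExpr, all 8 libraries at 3 levels), with limma 3.58.1 and DESeq2 1.42.0 as alternatives. Scripts were tested on simulated counts. Log2 values are log2 CPM with TMM scaling and a prior count of 2, and CPM levels use the library total alone. The SE of an edgeR log2 fold change is its absolute value over the square root of the quasi-likelihood F statistic. A gene was apart when its gap to the nearest 10 µM library was at least 2-fold. Gene coordinates are those of GENCODE release 29 (GRCh38), which was matched by symbol, and promoters are from RefSeq (GRCh38.p14).

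Deviations of same-numbered control and 10 µM libraries from their group means correlated at 0.103, 0.145 and 0.291 for numbers 2 to 4, each over 0.1, so the numbers were taken to pair the libraries. Unlike numbers gave 0.0459 and 0.0751 between 2 and 3, not far below the first 2 values, and negative values down to -0.194 with 4. Among these libraries only number 4 has letter-named columns, so for it pairing and column naming cannot be told apart. The pairing comes from the labels' replicate numbers, and number 1 pairs control 1 with the 20 µM library. Number 1 has no 10 µM library, so its pairing could not be looked at in this way. Blocked fits used the number as a factor. The comparison, the 40 gene lists (867 of 917 entries tested) and the tests were chosen with earlier results of these data known. Named by rule were the 15 apart genes of each direction with the largest gap and a mean log2 CPM of at least 1, the 4 members of each list with the largest difference, 31 anchor genes, the 6 genes of each direction with the largest 10 µM change and a 20 µM level inside the 10 µM range, and the 6 of each direction apart on the other side of their 10 µM change. ACSL4, ASNS, DHCR7, GABARAPL1, HK2, HSP90B1, IDI1, ISG15, LPCAT3, MAP1LC3B, MITF, SLC40A1, SREBF1, STAT5B, TFRC, TNF, TRIB3 and XBP1 were named after their values were seen. Some genes these rules name are not reported here.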

Additional observations from a re-analysis of the deposited data

Results flagged for a closer look

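Of 184 genes named with values in the text, 20 had 1 of the 4 controls far from the other 3. The measure is the gap from the end library to its nearest neighbour over the whole range of the controls, in CPM, against Dixon's 95% critical value. Chance alone gives about 1 in 20. Groups of 3 and the lone 20 µM library cannot be looked at in this way.

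Control 1, which has the replicate number of the 20 µM library, was the distant one in 15 genes, with ratios of 0.86 for CCL5, 0.838 for CDKN2B, 0.899 for COL1A1, 0.885 for CSNK2A3, 0.907 for GATD3B, 1 for HMOX1, 0.946 for HSPA1A, 0.946 for HSPA1B, 0.934 for IER3, 0.832 for IFIT1, 0.916 for ITGA3, 1 for NLRP3, 0.984 for PPAN, 0.965 for RPL21 and 0.969 for RPL41. It was the highest control in CCL5, COL1A1, HMOX1, HSPA1A, HSPA1B, IER3, IFIT1, ITGA3, NLRP3, RPL21 and RPL41, and the lowest in CDKN2B, CSNK2A3, GATD3B and PPAN. CCL5, CDKN2B, HMOX1 and NLRP3 were under 1 CPM in every control. In HSPA1A control 1 was at 369 CPM and the other controls at 52.9, 46.3 and 34.9 CPM, while the 20 µM library was at 632 CPM. In RPL21 these were 341 CPM, 32.2, 43 and 40.6 CPM and 299 CPM. The part of this shared feature in the differences between the doses was not tested.

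Control 2 was the distant control with ratios of 0.848 for NFKB1 and 0.897 for RAB5C, and control 4 with ratios of 0.839 for FJX1, 0.847 for KLF1 and 0.853 for RRM2.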

How the results depend on the processing

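With 1 library at 20 µM no difference has a replicate check, and dose, replicate number and depth cannot be told apart. The counts of genes apart by size, 2021 higher and 964 lower, depended most on the level and size asked for. They were 1086 higher with a filter of 1 CPM in 3 libraries, 826 higher among genes whose mean log2 CPM reached 1, 3104 higher and 2227 lower at 1.5-fold, and 757 and 174 at 4-fold. Against 10 µM replicate 4 alone 1636 were lower. With the replicate block by difference, where each treated library is set against the control of its number, 1224 were higher. Leaving out each 10 µM library gave 2178 to 2625 higher and 1131 to 1491 lower, the last without replicate 4. The edgeR counts, 1734 and 2169, were 1211 and 1630 with the replicate block, 2632 higher with limma-voom, and 2052 and 2594 with DESeq2, which gave no adjusted p for 1810 genes. Leaving out each library in turn gave 1199 to 1931 higher and 1658 to 2369 lower. Another 3 scalings, other prior counts, no filter, and thinning the replicate 1 libraries to the 10 µM depth left all of these counts within 1.5 times. The cause of these changes was not tested, beyond the filters and sizes, which by construction test other genes or ask for another gap. Of 143 named genes that edgeR called, 116 kept the call with any 1 of the 7 other libraries left out. Named genes outside those given with a blocked p above kept their side of the threshold with the block, other than CDKN2B, EIF5AL1 and SLX1A, which lost their calls, and HBG2, which gained one. Of 2374 differences of named genes recomputed, 2151 moved by less than the spread at 10 µM and 218 by more. The other 5, of genes apart by size, changed sign, all with the replicate block by difference: CSNK2A3 to 0.65, GATD3B to 0.35, GSDMD to -2.39, RPL21 to -0.35 and RPL41 to -0.0415. Sign changes were looked for only in genes apart by size, so genes not apart may have changed sign too. Of 520 group medians recomputed 19 changed sign, in 12 groups. These included the ferroptosis, caspase, globin, tRNA synthetase, cytosolic ribosomal protein and BCR-ABL1 groups. The rest were the megakaryocyte, keratin, integrin, transporter, monocyte and granulocyte, and epithelial and fibroblast groups.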
